A study of Mus musculus with 2 samples.

Results

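The immunoglobulin heavy chain constant locus of the mouse was examined in a genome-wide list of DNase I hypersensitive sites (DHS), regions where chromatin is open enough for the nuclease DNase I to cut. The locus lies on chromosome 12 and holds 8 constant genes, in the order of transcription Ighm, Ighd, Ighg3, Ighg1, Ighg2b, Ighg2c, Ighe and Igha. A DHS was counted when it overlapped, by 1 bp or more, the span of these genes or the 50 kb on either side. This window runs over chr12:114444460-114710941 of the mm9 build (266 kb), with the genes on the minus strand, and held 35 of the 47542 DHS of the list. Ighd and Igha are absent from the annotation used and were located by sequence similarity to the other members, so their ends are approximate.

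The cells were splenic B cells of C57/Bl6 mice of the genotype Trp53+/+, aged 8 weeks and given the mock treatment. They were enriched with magnetic beads against B220, a surface protein of B cells. One DNaseI library was analysed, so no difference between regions has a replicate check and no p-value is given, and a companion input library was not analysed here. The deposited list gives each DHS a score from the authors' peak caller, used here only to rank DHS within the list, and no read counts, so the depth is unknown and a region without a DHS is one where none was called. The cells were checked against marker genes by promoter DHS: the 5 B cell genes Cd79a, Cd79b, Ms4a1, Pax5 and Cd22 each had one, with highest scores from 83.97 to 265.27, against 1 of 6 T cell genes (Lck, 92.81) and 1 of 4 myeloid genes (Itgam, 18.16). Of 4 plasma cell genes, Sdc1 (40.96), Prdm1 (141.62) and Xbp1 (216.62) had a promoter DHS, and Igj, the antibody joining chain, had none. The score of Lck was above that of Cd22 (83.97), and the share of all genes with a promoter DHS was not computed.

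Each constant gene encodes the constant part of one class of antibody heavy chain. A resting B cell makes IgM and IgD from Ighm and Ighd, which are spliced from one long transcript that starts at the rearranged variable region. An activated B cell changes class by recombination between switch regions, stretches rich in the word AGCT that precede every constant gene except Ighd. Transcription from an I exon promoter upstream of a switch region comes before that recombination. An enhancer lies in the intron between the J segments and Ighm, and a group of enhancers, the 3′ regulatory region, lies beyond Igha, in part within a long inverted repeat, and is followed by a cluster of binding sites of the boundary factor CTCF. The J and D segments, joined to a V segment in each B cell, lie upstream of Ighm, and all positions given are those of the germline order in the reference.

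Several sequences are shown because the results turn on where they fall. The first set holds copies of the octamer ATGCAAAT, the word bound by Oct factors, in the J to Ighm intron and beyond Igha. Capitals mark the octamer on either strand and the E-box word CAGGTG.
Octamer of the J to Ighm intron, chr12:114665539-114665738, minus strand: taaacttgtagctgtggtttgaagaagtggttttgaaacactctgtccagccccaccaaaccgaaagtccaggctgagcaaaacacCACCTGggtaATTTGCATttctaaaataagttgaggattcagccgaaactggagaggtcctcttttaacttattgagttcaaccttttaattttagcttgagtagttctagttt
Octamer of the DHS 10.6 kb beyond Igha, chr12:114483062-114483181, minus strand: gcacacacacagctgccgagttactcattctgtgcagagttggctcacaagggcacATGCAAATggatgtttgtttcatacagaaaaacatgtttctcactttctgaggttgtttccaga
Octamer of the DHS 27.0 kb beyond Igha, chr12:114466505-114466624, minus strand: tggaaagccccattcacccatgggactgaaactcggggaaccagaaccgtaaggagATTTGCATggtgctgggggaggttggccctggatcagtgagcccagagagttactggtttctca
The second set shows words close to the CTCF motif (capitals, 14 bases with at most 1 mismatch) in the DHS farthest from Igha.
CTCF word of the DHS 32.6 kb beyond Igha, Igha-proximal, chr12:114460679-114460718, minus strand: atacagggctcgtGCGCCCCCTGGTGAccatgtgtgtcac
CTCF word of the same DHS, middle, chr12:114459606-114459645, minus strand: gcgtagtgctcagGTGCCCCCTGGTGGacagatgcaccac
CTCF word of the same DHS, Igha-distal, chr12:114458251-114458290, minus strand: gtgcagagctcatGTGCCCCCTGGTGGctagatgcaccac
CTCF word of the DHS 39.6 kb beyond Igha, chr12:114454316-114454355, minus strand: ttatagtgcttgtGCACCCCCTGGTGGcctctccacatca
The third set gives a 100-base window, chosen as the one with the most AGCT, of 4 stretches with at least 16 AGCT per 1 kb window that precede constant genes, with each AGCT in capitals. The window of Ighm lies wholly within the DHS of score 111.95, the window of Ighg2b lies within a DHS of score 10.97, and the windows of Ighg1 and Igha lie in stretches where no DHS was called.
AGCT-rich stretch 5′ of Ighm, chr12:114662958-114663057, minus strand: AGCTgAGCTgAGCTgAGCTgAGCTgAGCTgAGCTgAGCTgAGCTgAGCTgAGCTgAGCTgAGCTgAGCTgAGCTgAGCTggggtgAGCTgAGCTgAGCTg
AGCT-rich stretch 5′ of Ighg2b, chr12:114552010-114552109, minus strand: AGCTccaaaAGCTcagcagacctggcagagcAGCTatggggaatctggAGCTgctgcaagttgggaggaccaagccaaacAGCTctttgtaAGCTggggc
AGCT-rich stretch 5′ of Ighg1, chr12:114575582-114575681, minus strand: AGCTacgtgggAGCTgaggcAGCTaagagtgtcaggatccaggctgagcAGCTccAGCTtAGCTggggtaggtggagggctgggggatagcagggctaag
AGCT-rich stretch 5′ of Igha, chr12:114500556-114500655, minus strand: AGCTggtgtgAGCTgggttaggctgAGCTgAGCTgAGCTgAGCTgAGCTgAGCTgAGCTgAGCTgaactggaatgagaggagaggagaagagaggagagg

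The 35 DHS covered 45.4 kb, 17.0% of the window, whereas DHS covered 1.42% of chromosome 12 and 1.76% of chromosomes 1 to 19. Their density was 131 per Mb (95% exact Poisson interval 91.5 to 183), compared with 15.2 per Mb on chromosome 12 and 18.9 per Mb on the autosomes. The ratio of densities was 6.97 (4.85 to 9.69) to the autosomes and 8.64 (6.02 to 12.02) to chromosome 12. These intervals cover counting error only. With DHS closer than 500 bp merged, the locus held 18 and the ratio to the autosomes was 4.54. The DHS were not strong as a group. Their median score was 24.31, with a 95% interval of 14.76 to 32.93, beside 32.65 for the autosomes, and 12 of the 35 (34.3%) reached the median of the list, against 50.1% of all DHS by the same rule. Scores within the locus ran from 7.65 to 352.61 and widths from 334 to 7824 bp, with a median width of 729 bp.

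**Figure D1:**
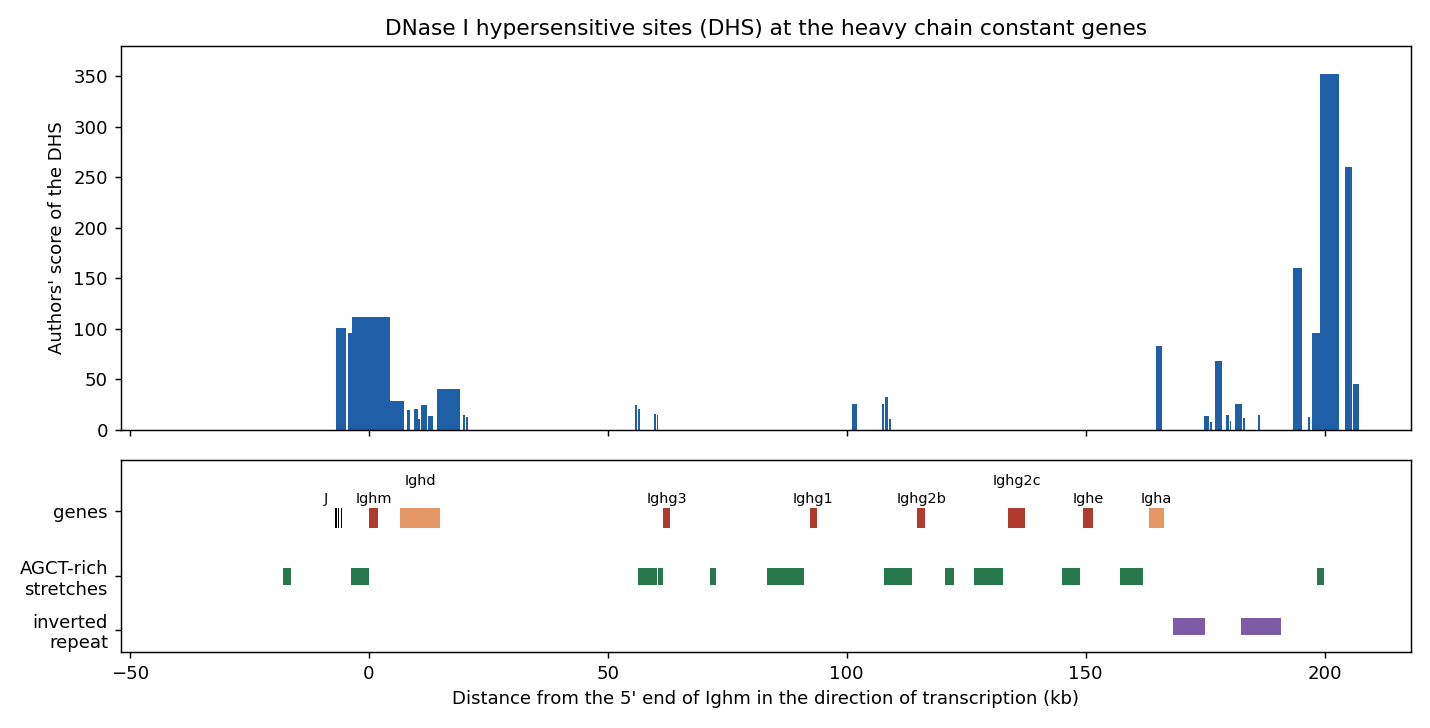
The upper panel plots each DHS by position (kb from the 5′ end of Ighm, in the direction of transcription) and width against the authors' score; the lower panel shows the constant genes (dark red, annotated; light orange, located by sequence similarity), the J segments (black), AGCT-rich stretches (at least 12 AGCT per kb window) and the arms of the inverted repeat. DHS crowd at the J to Ighd end and beyond Igha, with scores up to 111.95 and 352.61, and low DHS lie upstream of Ighg3 and Ighg2b.

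The DHS fell into 7 groups when those less than 5 kb apart were joined. The first spanned 27.6 kb from the J segments past Ighd, with 12 DHS that covered 83.7% of it. The other groups held 4, 1, 3, 1, 8 and 6 DHS. Between the groups, 34.9 kb without a DHS separated the first from the DHS upstream of Ighg3. A further 40.5 kb, with Ighg3 and Ighg1, lay between these and the DHS upstream of Ighg2b, and 55.5 kb between the latter and the DHS in Igha. The last of these bare stretches held Ighg2b, Ighg2c, Ighe and the 5′ part of Igha.

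At the 5′ end of the constant genes, the DHS were wide and closely spaced. The DHS at the J segments (chr12:114665661-114667840, score 100.62) covered Ighj4, Ighj3 and Ighj2, but not Ighj1. The next one (chr12:114664534-114665398, score 95.97) lay within the J to Ighm intron. The third (chr12:114656628-114664451, score 111.95) ran from that intron across Ighm, the gene of the IgM heavy chain, and past the annotated 3′ end over the match of its membrane exon. At 7824 bp it was wider than 99.9958% of all DHS, but its score stood at percentile 87.1. It also overlapped the end of Gm11029, a protein-coding gene model on the opposite strand, and 3 miRNA gene models, AC073553.1, AC073553.2 and AC073553.3, which lie in the AGCT-rich sequence upstream of Ighm.

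The gaps within this group were short. The 3 DHS covered 94.1% of the 5.783 kb intron, with 262 bp between the first pair and 82 bp between the second and the third. The octamer printed from the intron (chr12:114665635-114665642) lay inside the 262 bp gap, 19 bp from the nearest DHS. It was 1 of 21 octamers in the window, of which 4 (19.05%) lay in a DHS. This share is near the 17.0% of the window that DHS cover, so it is not a result about octamers.

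Ighd, the gene of the IgD heavy chain, was covered at 63.4% by 7 DHS, most of them weak. The first (chr12:114653623-114656489, score 28.87, width 2867 bp) reached in from the Ighm to Ighd interval and also overlapped Gm11029. Toward the 3′ end followed DHS with scores of 19.23, 20.45, 11.13, 24.86 and 13.90. The last (chr12:114641988-114646703, score 40.24, width 4716 bp) covered the match of the membrane exon and ran past the end of the gene. Of the 7, only this one reached the median score of the list. The widths of the last and the first stood at percentiles 99.9 and 98.6 of the list. The interval between Ighm and Ighd was covered at 97.02%.

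**Figure D2:**
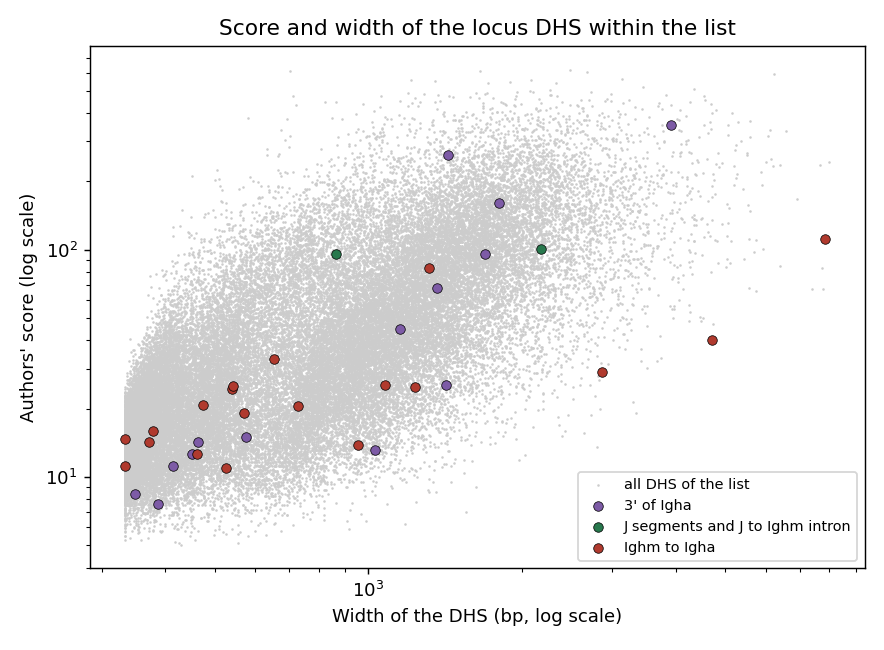
Width (bp, log scale) against the authors' score (log scale) for all 47542 DHS (grey) and the 35 locus DHS, coloured by place. The widest DHS of the locus, at Ighm (7824 bp, score 111.95), and that at the 3′ end of Ighd (4716 bp, score 40.24) lie at the right of the list with moderate scores, and those beyond Igha reach the highest scores of the locus, up to 352.61.

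The genes of the IgG and IgE heavy chains had no DHS in their bodies. Ighm, Ighd and Igha were the 3 of 8 constant genes with a DHS in the body. By the same rule, a DHS overlapped 40.1% of all annotated genes, 57.9% of protein-coding genes and 48.4% of protein-coding genes as long as the members. A share of 3 in 8 lies near these, so it is not a result about the constant genes as a set. The bodies were not defined alike. That of Igha ran to its membrane exon match, whereas the annotated bodies of Ighm, Ighg3, Ighg1, Ighg2b and Ighe ended before theirs. A body of Igha limited to the constant domain matches would have no DHS. The 5 bodies without a DHS were those of Ighg3, Ighg1, Ighg2b, Ighg2c and Ighe, 1545 to 3606 bp long, and repeated 31-base words made up 0.527% to 11.02% of them. A repeated word is one that occurs more than once in the assembly, so that a short read there may not be placed.

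Upstream of the IgG genes, DHS were called for Ighg3 and Ighg2b and for no other. The interval between a constant gene and the gene before it, where the I exon promoter and the switch region lie for all members but Ighd, held a DHS for Ighm (3), Ighd (2), Ighg3 (7) and Ighg2b (4), that is for 4 of 8, against 56.8% of protein-coding genes with intervals of like length. No DHS was called over the 29.141 kb before Ighg1, the 17.458 kb before Ighg2c, the 12.078 kb before Ighe or the 11.684 kb before Igha. Repeated words made up 30.7%, 22.6%, 4.33% and 5.23% of these 4 intervals, and their part in the absence of a DHS was not tested.

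Of the 7 DHS before Ighg3, 3 adjoined Ighd, at the far end of the 46.531 kb interval. The other 4 lay 0.971 to 5.875 kb from the 5′ end of Ighg3 as 2 close pairs, with scores of 14.76 and 15.95 in the nearer pair and 20.85 and 24.31 in the farther one, all under the median of the list. Before Ighg2b, 3 DHS lay 5.524 to 7.467 kb from its 5′ end with scores of 10.97, 32.93 and 25.27, and another of 25.51 lay 12.7 kb away. The highest of them, 32.93, stood at percentile 50.3 of the list. The DHS before Ighg3 and Ighg2b thus overlapped in score, and all were lower than the 3 DHS around Ighm, of which the lowest scored 95.97.

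The stretches rich in AGCT gave the position of switch-like sequence. With at least 12 AGCT in a window of 1 kb, 12 stretches were found, and DHS overlapped 4 of them. Each constant gene except Ighd was preceded by at least one. A second, shorter stretch lay before each of Ighg3, Ighg1 and Ighg2c, 1 lay in the D part of the flank and 1 beyond Igha. The density was highest before Ighm, with 209 AGCT or 56.5 per kb, and lay between 17.1 and 27.3 per kb in the longest stretch before each of Ighg3, Ighg1, Ighg2b, Ighg2c, Ighe and Igha. The Ighm stretch was covered at 97.8%, the longer one of Ighg3 at 20.5% and that of Ighg2b at 20.3%. The stretch beyond Igha, 1500 bp with 12.7 AGCT per kb, was covered at 95.5% by the DHS of scores 352.61 and 96.04. No DHS was called in the other 8. At the stricter limit of 16 per window there were 7 stretches, one before each constant gene except Ighd, and 3 of them overlapped a DHS.

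At Ighg3 the longer stretch was bracketed by the 2 pairs of DHS, one at each end, and at Ighg2b the DHS lay at the 5′ end. In both, the remainder of the stretch had no DHS. Repeated words made up 22.4% of the Ighm stretch, which was covered, and 45.9% of that of Ighg2b. The longest stretches without a DHS had 26.2% (Ighg1), 16.2% (Ighg2c), 0.637% (Ighe) and 10.9% (Igha), and that of Ighg3, covered only at its ends, had 3.15%. The part that read placement had in the coverage of these stretches was not tested.

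**Figure D3:**
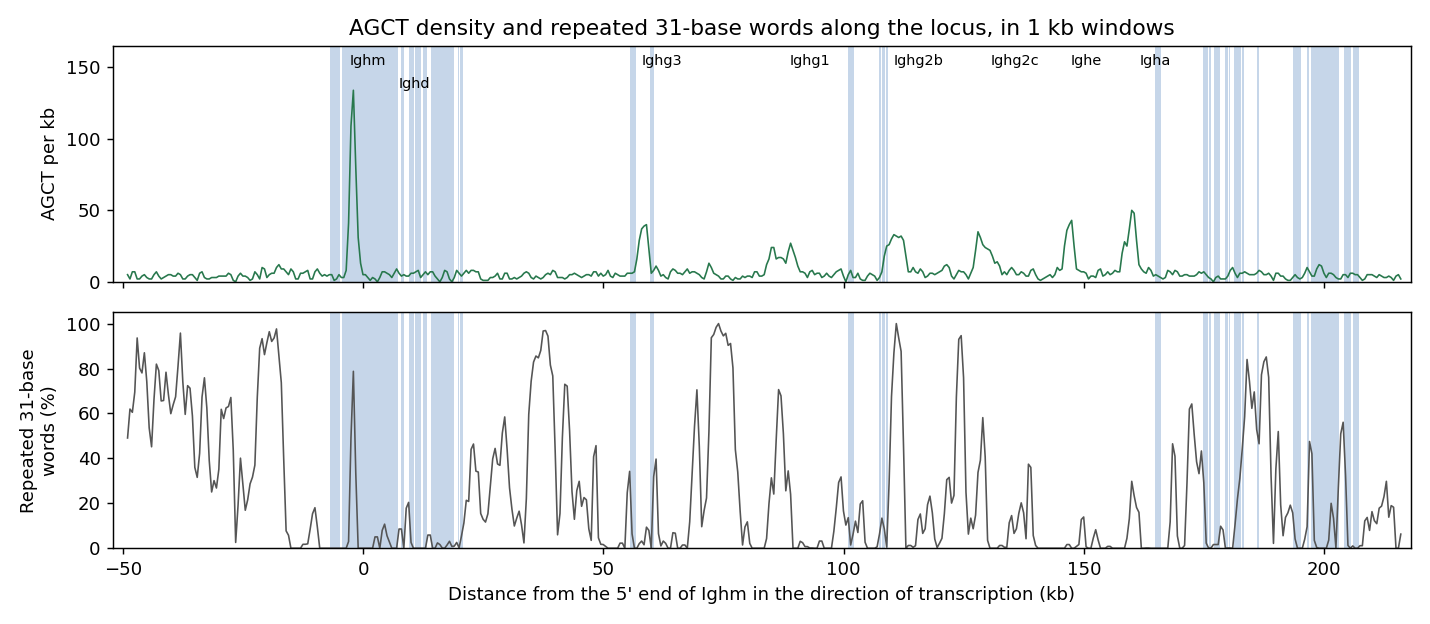
AGCT per kb (upper) and the share of repeated 31-base words (lower) in 1 kb windows against the distance from the 5′ end of Ighm in the direction of transcription (kb), with DHS as blue bands. The AGCT peak before Ighm lies inside a DHS, while those before Ighg1, Ighg2c, Ighe and Igha, with 17.1 to 27.3 AGCT per kb over their longest stretches, have no band.

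Igha, the gene of the IgA heavy chain, had a single DHS (chr12:114494866-114496178, score 82.71, width 1313 bp), which covered 40.4% of its body. It lay between the similarity matches of the constant domain exons and that of a membrane exon, that is, in the intron of the membrane form. None of its 31-base words was repeated. It contained 1 CTCF word on the minus strand, and 55.5 kb without a DHS preceded it.

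Beyond Igha, 14 DHS covered 32.9% of the 50 kb, compared with 13.4% of the 166 kb of constant genes and 13.1% of the 50 kb before Ighm. Of the 14, 6 reached the median score, beside 4 of 19 DHS centred among the constant genes and both of the 2 centred in the 50 kb before Ighm. The first 8 lay 8.29 to 19.6 kb from the 3′ end of Igha. In order of distance their scores were 13.14, 7.65, 68.12, 15.05, 8.39, 25.47, 11.22 and 14.23. Only the third of them (chr12:114482487-114483846) exceeded the median. It also held an octamer, shown among the sequences.

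The same 8 DHS were those within the inverted repeat. Exact matches of 31-base words between the region and its own reverse complement placed the arms at chr12:114485902-114492659 and chr12:114470147-114478382, a span of 22.513 kb, with 86 runs whose centres lay within 1000 bp of one position. The runs covered 8546 bp of both arms together, each base counted once. The longest run was 177 bp. That position lay 13.1 kb from the 3′ end of Igha, and the middle of the DHS with score 68.12 lay at 11.3 kb, between the arms. DHS covered 26.7% of the span. The 2 DHS with the most repeated words of the locus lay in the far arm, with 40.8% (score 11.22) and 31.9% (score 14.23). The part of read placement in these scores was not tested.

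The highest scores of the locus lay beyond the inverted repeat. The remaining 6 DHS, 27.0 to 39.6 kb from Igha, covered 75.9% of the 13.8 kb that they spanned. The nearest (chr12:114465693-114467497) scored 160.01, percentile 94.0 of the list, and contained an octamer and a word within 1 mismatch of the NF-kappaB word. It was followed by a weak DHS of 12.65 (chr12:114463990-114464440) and one of 96.04 (chr12:114461880-114463569). The next (chr12:114457895-114461811, width 3917 bp) had the highest score, 352.61, at percentile 99.5, and ranked at percentile 99.6 in width. Those that followed scored 260.14 (chr12:114455287-114456719, percentile 98.5) and 44.82 (chr12:114453725-114454876). The last was also the outermost DHS inside the window.

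Beyond the edge of the window on this side, the nearest DHS lay 18.0 and 18.5 kb outside, at Tmem121, with scores of 25.58 and 34.01. On the other side, the DHS at the J segments was the last one, and the next lay 906 kb outside the window, with a score of 18.05. The stretch between them, 949 kb without a DHS, was the 21st longest of 1842 such gaps on the chromosome and contained 43 V and 21 D gene models. In the 42.897 kb of it that fell in the window, upstream of the J segments, repeated words made up 48.6% of the sequence. The parts of read placement and of the joining of V, D and J segments in these cells, which changes the germline order, were not tested for this gap.

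Words bound by B cell factors were searched on both strands in the central 300 bp of each DHS. The octamer was present in 2 of 35 locus DHS (5.71%) and 1.64% of all DHS. The E-box word CAGGTG was present in 11 (31.4%) against 24.1%, and the NF-kappaB word, allowing 1 mismatch, in 2 (5.71%) against 2.78%. The word GAGGAAGT of PU.1, a factor of myeloid and B cells, was present in none against 3.61%. The CTCF word was present in 1 (2.86%) against 7.45%. With 35 DHS these shares rest on a few sequences each, and they describe letters, not binding.

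Of 7 CTCF words in the whole window, 5 (71.4%) lay in DHS, which cover 17.0% of it. Over whole DHS, the word was present in 3 of 35 (8.57%), against 11.97% of all DHS. The DHS of score 352.61 held 3, and the outermost DHS held 1. These 4 were in the same orientation, on the plus strand, opposite to the genes, and the one in the DHS of Igha was on the minus strand. The printed windows, read on the minus strand, of these 4 share the 10-base run CCCCCTGGTG. The search word by which the 4 were found itself sets many letters of this run, so the likeness is in part given by the search.

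In base composition, the locus DHS had a median GC content of 49.7%, close to the 48.9% of the other 1808 DHS of chromosome 12. Their observed to expected ratio of CpG was low. Its median was 0.103 and its highest value 0.223, while the median of the other DHS was 0.267 and their lower quartile 0.172. The word AGCT occurred at a median of 5.22 per kb in locus DHS and 5.37 per kb in the others, and repeated words at medians of 1.15% and 0%. None of the locus DHS thus reached the median CpG ratio of the other DHS.

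The constant genes of the other antigen receptors, with 50 kb on either side, were set beside the heavy chain locus. The heavy chain locus had 13.1 DHS per 100 kb (9.15 to 18.3), the kappa light chain locus 16.9 (9.87 to 27.1) and the lambda light chain locus 10.6 (6.88 to 15.7). Their intervals overlapped. DHS covered 17.0%, 19.2% and 11.1% of these windows, but the median score of the heavy chain DHS, 24.31, was the lowest of the 3, beside 41.31 and 57.86. Of the T cell receptor loci, alpha had 8.77 per 100 kb (4.01 to 16.7), beta 0.909 (0.0230 to 5.07) and gamma 3.36 (1.45 to 6.62). The beta and gamma intervals lay below that of the heavy chain and the alpha interval overlapped it. These intervals count each called DHS as separate, so they depend on how the caller divided DHS. With DHS closer than 500 bp merged, the heavy chain locus held 18 in place of 35, and merging was not run for the other loci. The order of the loci also depended on weak DHS. With DHS at or above the median score alone, the heavy chain locus had 4.50 per 100 kb (2.33 to 7.87), fewer than kappa with 9.97 (4.78 to 18.3), lambda with 6.81 (3.89 to 11.05) and T cell receptor alpha with 6.82 (2.74 to 14.1). The beta locus then had 0.909 (0.0230 to 5.07) and gamma 0.420 (0.0106 to 2.34), and the intervals of all 5 other loci overlapped that of the heavy chain. These values are those of windows with flanks, not of the constant genes alone. The alpha window of 102.577 kb held 1 constant gene, 2 protein-coding gene models and 9 DHS of median score 130.26. The heavy chain window held 4 such models. With flanks of 10 kb, alpha held 5 DHS and the heavy chain locus 23.

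**Figure D4:**
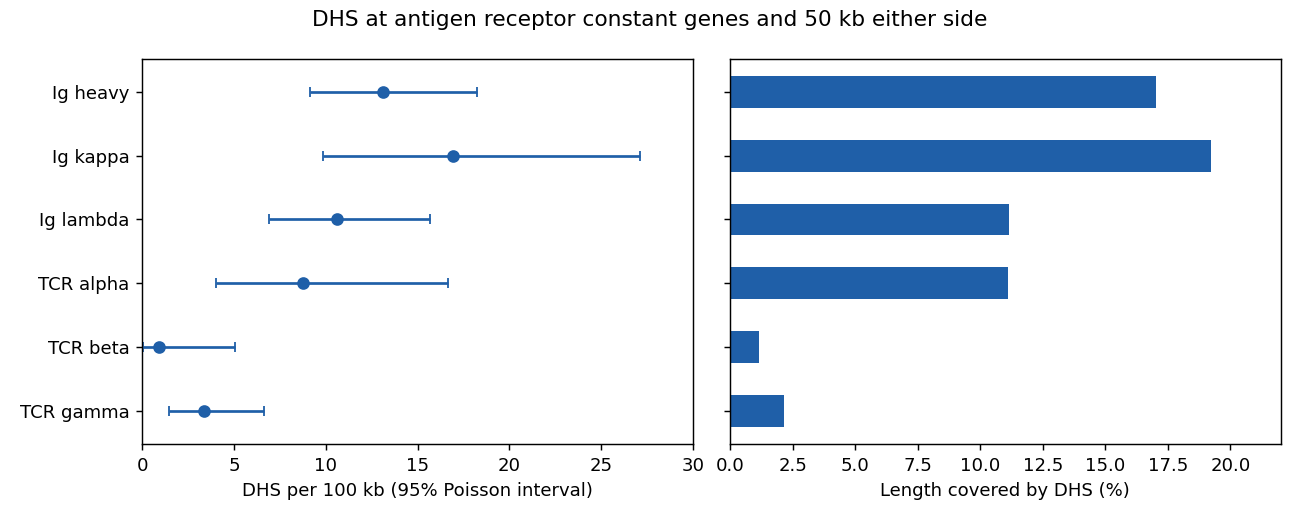
DHS per 100 kb with 95% exact Poisson intervals (left) and the share of length covered by DHS (right, %) at the constant genes of 6 antigen receptor loci with 50 kb on either side. The heavy chain locus (13.1 per 100 kb, 17.0% covered) lies between the kappa (16.9, 19.2%) and lambda (10.6, 11.1%) loci, and the T cell receptor beta and gamma loci are lowest; with DHS at or above the median score alone, the heavy chain value (4.50) falls below those of lambda (6.81) and T cell receptor alpha (6.82).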

How the data were processed

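Accessible chromatin was measured in 1 DNaseI library. The authors deposited 1 peak list for it, with a score per DHS from their MACS caller whose scale is not stated. The submitters' processing notes list BWA 0.6.2, SAMtools and mm9; caller settings and the use of the input library as control are not given in the sources used here for this library. GENCODE release M1, on the same build, gave gene positions. It names Ighg2b, Ighg3 and Ighe otherwise; they were named by gene order and synonyms in RefSeq, whose coordinates were not used. Ighd and Igha have no entry in it and were located by tblastx 2.17.0 with exons of Ighm, Ighg2c and Ighe (E at most 0.001, at least 24 residues), so their ends are approximate.

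DHS overlapping by 1 bp or more were counted with Python 3.11.15, pandas 2.3.3, numpy 2.4.6, numba 0.67.0 and pysam 0.24.0, and intervals were computed with scipy 1.17.1. Promoters ran from 5 kb upstream to 2 kb downstream of a start site. AGCT was counted in 1000 bp windows in steps of 100 bp. Repeated words were 31 bases long, on either strand. Shares over all DHS for motifs rest on 47481 of them. The scripts were tested on simulated data. The text names the members, the 10 highest and the 3 widest DHS, and those in a member or beyond Igha; DHS before Ighg3 and Ighg2b are given as groups. One gene of the B cell marker list is not reported here. The members and lists were chosen with earlier results of these data known. With 1 library, alternatives changed the score cut, merging, flank, overlap rule, reference, word length and mismatches, and their effect is given in the closing section.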

Additional observations from a re-analysis of the deposited data

How the results depend on the processing

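Of 50 values under alternatives, 26 stayed within their limits and 24 moved. Of these, 2 alternatives were chosen after seeing the data: with annotated members alone the window held 33 DHS, and bodies extended to membrane exon matches left 3 genes with a DHS. With DHS at or above the median score, the locus held 12 (ratio to the autosomes 4.77, median score 96.005), 6 lay beyond Igha, and the kappa, lambda, T cell receptor alpha and gamma loci held 10, 16, 7 and 1, which per 100 kb put the heavy chain locus (4.50) below lambda (6.81) and alpha (6.82). With DHS closer than 500 bp merged, the locus held 18 (ratio 4.54), 8 of them beyond Igha. With flanks of 10 kb, the heavy chain, kappa, lambda, T cell receptor alpha and gamma loci held 23, 8, 14, 5 and 0. Covered bases gave a ratio of 9.70. With at least 8 AGCT per window, 14 of 43 stretches overlapped a DHS, beside 4 of 12 at 12 and 3 of 7 at 16. Over whole DHS, the octamer, E-box, PU.1, NF-kappaB and CTCF words occurred in 4, 20, 1, 4 and 3 locus DHS (4.70%, 50.6%, 8.90%, 8.00% and 11.97% of all DHS), and without mismatches the NF-kappaB and CTCF words occurred in 0 and 0 central sequences. Fewer or merged DHS, a shorter window and longer sequence change these counts by construction. The constant genes with a DHS in the body (3) or in the 5′ interval (4) kept their numbers under every alternative run for them, but at the median score Ighg3 counted only through the DHS of 40.24 at the end of Ighd, and Ighg2b through 1 DHS of 32.93 against a median of 32.65. No alternative ended the body of Igha before its membrane exon match, and without that part it would have no DHS.

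No paired analysis was possible because the result comes from no test. One library without a replicate, unknown depth and a score of unstated scale limit every value. Closed chromatin cannot be told apart from too few reads where no DHS was called or, upstream of Ighm, from the joining of V, D and J segments. How 12 neighbouring DHS were divided at the J to Ighd end depends on the caller.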
